A study of Mus musculus with 24 samples.

Results

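The transcripts of 10 genes that encode the mTOR kinase complexes and their immediate switch (*Mtor*, *Mlst8*, *Rptor*, *Rictor*, *Mapkap1*, *Prr5*, *Prr5l*, *Tsc1*, *Tsc2* and *Rheb*) were followed in Tconv CD4+ cells, out of 55414 genes listed and 10566 tested. The 10 were chosen by name, as rows of the deposited count table, with earlier results of these data known. All 10 passed the filter on low counts. Cells were CD4+ CD25− conventional T cells taken by magnetic sorting from spleens of conplastic mice, whose nuclear genome was C57BL/6J throughout and whose mtDNA came from C57BL/6J (mtDNA B6, labelled WT) or from the NZB strain (mtDNA NZB, labelled NZB). The 4 groups were resting (RES) and activated (ACT) cells of each haplotype, with 6 libraries per group. Per the study's methods, activation was by CD3/CD28 beads at 1 bead per cell, plus IL-2, for 72 h. The methods describe most mice as 2- to 3-month-old males. Levels of transcripts are compared here, not the activity of the complexes.

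mTOR is a serine/threonine kinase that works in a pair of complexes. mTORC1, defined by raptor (*Rptor*), responds to amino acids, energy and growth factors and drives protein, lipid and nucleotide synthesis. mTORC2, defined by rictor (*Rictor*) and SIN1 (*Mapkap1*), phosphorylates AKT, SGK1 and protein kinase C. The catalytic subunit mTOR and the β-propeller protein mLST8 are common to both complexes. The TSC complex, built on hamartin (*Tsc1*) and tuberin (*Tsc2*), turns off the small GTPase RHEB, which in its GTP-bound form activates mTORC1 at the lysosome. In CD4+ T cells, mTORC1 is engaged after T cell receptor and CD28 signalling and is needed for exit from quiescence, and mTORC1 and mTORC2 have separate parts in T helper cell differentiation. Much of this control acts on proteins, which were not measured here.

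Libraries were made by bulk MARS-seq. It reads the 3′ end of polyadenylated RNA and counts each original molecule once through its unique molecular identifier (UMI). Values are CPM, the UMI counts of a gene scaled to a fixed library total after TMM normalisation, a correction for differences in RNA composition. Because only transcript ends were read, the annotated ends of the 5 members that passed the test in either haplotype are shown here, from the canonical transcripts of GENCODE vM39 on GRCm39. Each 30-base window lies in the last exon, within the 3′ UTR, and the capitals mark the poly(A) signal hexamer AATAAA closest to the end of the transcript.
*Rptor* (chr11:119790204-119790233, + strand): acagagtgttaataaagAATAAAgccgtga
*Rictor* (chr15:6829845-6829874, + strand): ggattcattgttAATAAAatgtacttaaaa
*Prr5l* (chr2:101543458-101543487, − strand): cagtgatggaaaAATAAAcaaggtacctac
*Tsc1* (chr2:28581147-28581176, + strand): taactgtgaacaAATAAAgatttattgttt
*Tsc2* (chr17:24814798-24814827, − strand): ggagggggggcgAATAAAttagcatcttgg
The last 1000 bases of *Tsc2* overlap *Pkd1* on the opposite strand over 700 bases, and those of *Mlst8* overlap *Bricd5* on the opposite strand over 558 bases. The strand setting of the counting is not given in the sources used here, so reads in these overlaps may be divided between the genes. The ends of the other 8 members overlapped no other gene.

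Libraries held 51409 to 6449395 UMI counts, with a median of 3187196. The smallest is mtDNA NZB resting replicate 2, in which each member had 0 to 3 counts, and the next smallest held 641467. *Il2ra*, which encodes CD25 and is induced on activation, lay between 0 and 5.71 CPM in resting and between 42.0 and 180 CPM in activated libraries. *Cd4* was at 356 CPM or more in every library. Resting libraries also held more RNA of some other cell types. Other-cell RNA was summed over 22 markers of B cells, myeloid cells, neutrophils, erythroid cells, NK cells and platelets. It ran from 1205 to 21880 CPM at rest and from 237 to 1309 CPM after activation. The myeloid, neutrophil, erythroid and NK medians were higher at rest in both haplotypes. The summed platelet markers went the other way, with medians of 10.8 at rest and 131 CPM after activation in mtDNA B6 cells, and 11.0 and 89.0 in mtDNA NZB cells. This sum was mostly *Pf4*, which reached 434.3 CPM. *Gp9* reached 16.55 CPM at most, and *Ppbp* reached 3.635 CPM and was at 0 in 17 libraries, so the sum may not stand for platelets. B cell medians were 401 at rest and 502 CPM after activation in mtDNA B6 cells, and 529 and 445 in mtDNA NZB cells. CD8 T cell markers, which the sum leaves out, were higher after activation. Their medians were 68.6 at rest and 276.8 CPM after activation with mtDNA B6, and 51.85 and 164.5 CPM with mtDNA NZB. The labels do not say whether libraries of a group came from separate mice. The study's text gives fewer replicates per model for its activation experiments than there are libraries in a group here, so whether some libraries share a mouse is not known, and p-values measure the spread between these libraries, which may be technical in part. In bulk RNA, fewer cells that express a gene and less of its RNA per cell cannot be told apart.

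mtDNA NZB resting replicates 5 and 6 stood apart from the other resting libraries in several members. Of the activation markers, their *Tnfrsf4* (OX40) levels were 143 and 155 CPM, against 34.4 to 67.8 in the other 4 resting mtDNA NZB libraries, while their *Il2ra* levels of 1.38 and 3.21 CPM were at resting values. Their *Tnfrsf9* levels were 29.3 and 37.7 CPM, against 0 to 34.1 in the other 4. *Mki67* was lowest of the group in replicate 5, at 6.42 CPM, and highest in replicate 6, at 65.85 CPM. Replicate 6 held the highest and replicate 5 the lowest level of other-cell RNA of all resting libraries, at 21880 and 1205 CPM. The part of these differences in the results was not tested. Calls and ratios of the members that include these libraries are given with and without them, over 24 and over 22 libraries, a choice made after their values were seen.

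**Figure D1:**
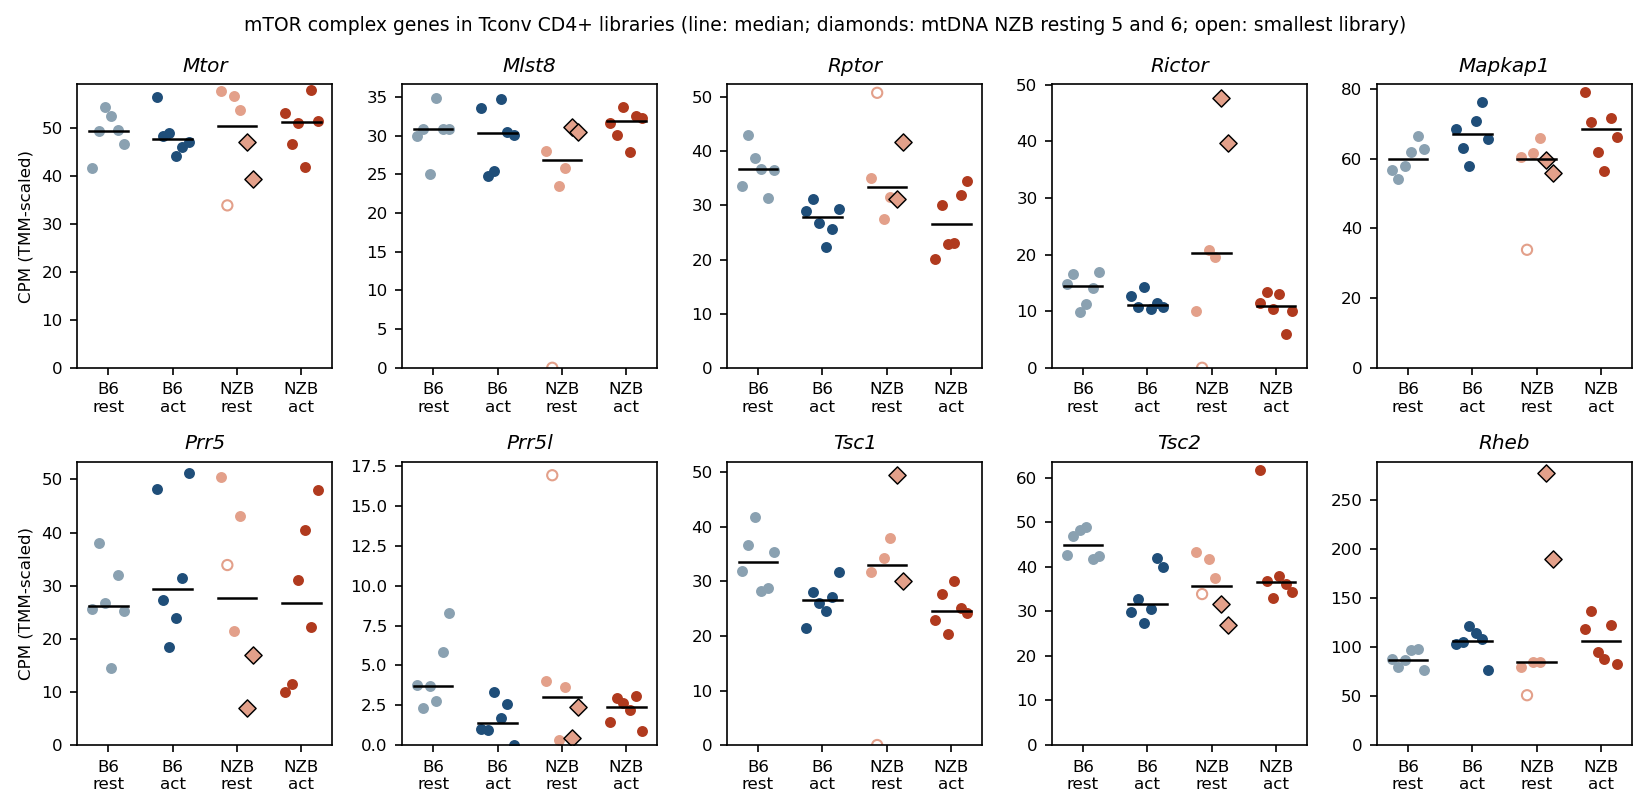
TMM-scaled CPM of the 10 genes in each of 24 libraries, by mtDNA haplotype and state, with the group median as a line, mtDNA NZB resting replicates 5 and 6 as diamonds and the smallest library as an open circle. *Mtor* lay at similar levels in all 4 groups, while *Rictor* and *Rheb* were highest in the 2 libraries drawn as diamonds.

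Activation was compared with rest within each haplotype, to ask which subunits change when Tconv cells leave quiescence. In mtDNA B6 cells 3 of 10 members passed the test (adjusted p of at most 0.05), all lower after activation: *Rptor*, *Prr5l* and *Tsc2*. In mtDNA NZB cells 2 of 10 passed, both lower: *Rictor* and *Tsc1*. No member passed in both haplotypes, and none rose over the 24 libraries. Among all genes tested, 46.9% passed in mtDNA B6 cells, 24.5% of all being lower, and 53.5% passed in mtDNA NZB cells, 28.4% being lower, so the members' 3 and 2 of 10 were below the share of genes called in either direction and near the share called lower. Over the 22 libraries without mtDNA NZB resting replicates 5 and 6, 4 of 10 passed in mtDNA B6 cells, 1 higher (*Rheb*) and 3 lower (the same 3 genes), against 53.3% of all genes, and 2 of 10 in mtDNA NZB cells, both higher (*Mlst8* and *Rheb*), against 50% of all genes. The median size of the log2 fold change was 0.28 over the members against 0.42 over all genes in mtDNA B6 cells, and 0.18 against 0.53 in mtDNA NZB cells.

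**Figure D2:**
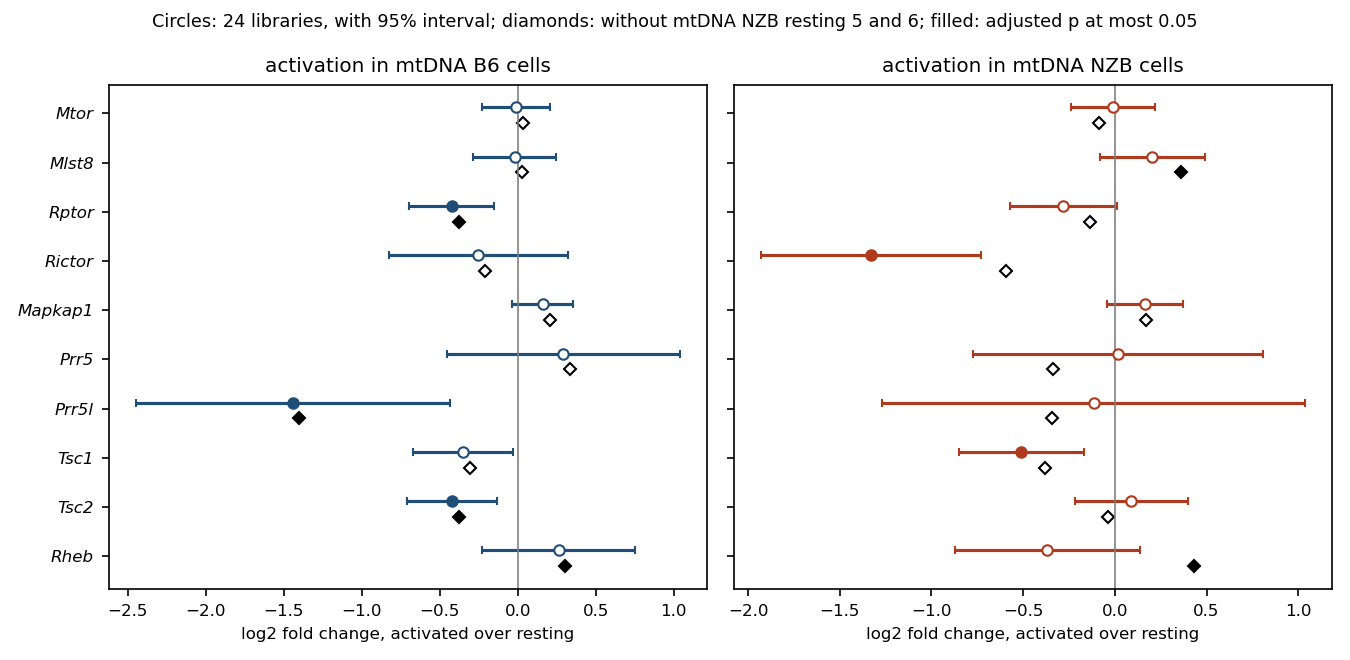
Log2 fold change of each member from rest to activation (x axis) in mtDNA B6 (left) and mtDNA NZB cells (right), as circles with 95% intervals over 24 libraries and as diamonds over 22 libraries without mtDNA NZB resting replicates 5 and 6, with filled symbols for an adjusted p of at most 0.05. *Rheb* in mtDNA NZB cells lay below 0 over 24 libraries and above 0 over 22, and *Rptor* in mtDNA B6 cells was lower in both.

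Of the subunits common to both complexes, *Mtor* changed little. *Mtor*, the kinase itself (chr4:148533015-148642141), ran from 41.7 to 54.3 CPM with a median of 49.5 in resting and from 44.1 to 56.5 with a median of 47.7 in activated mtDNA B6 cells. With mtDNA NZB it ran from 33.9 to 57.7 with a median of 50.5 at rest and from 41.8 to 57.9 with a median of 51.2 after activation. The groups overlapped throughout, and the lowest value was that of the smallest library, which rests on 2 counts. The log2 fold change of *Mtor* on activation was −0.01 (95% interval −0.23 to 0.21) in mtDNA B6 and −0.01 (−0.24 to 0.22) in mtDNA NZB cells.

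*Mlst8*, which stabilises the kinase domain, ran from 24.97 to 34.9 CPM (median 30.8) at rest and from 24.8 to 34.8 (median 30.3) after activation in mtDNA B6 cells. Among mtDNA NZB libraries it had 0 counts in the smallest and 23.5 to 31.2 CPM in the other 5 at rest, and 27.9 to 33.7 CPM after activation. Of the 6 activated mtDNA NZB libraries, 4 lay above the highest resting one. The log2 fold change was −0.02 ± 0.13 (SE) in mtDNA B6 and 0.20 ± 0.14 in mtDNA NZB cells, with adjusted p of 0.986 and 0.218. Over the 22 libraries *Mlst8* was called higher in mtDNA NZB cells, at 0.36 ± 0.15 with an adjusted p of 0.0411. *Bricd5*, which shares its end, had 0 to 3 counts in any library.

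*Rptor*, whose product recruits substrates to mTORC1, was the member with the clearest fall in mtDNA B6 cells. It ran from 31.4 to 43.0 CPM (median 36.6) at rest and from 22.3 to 31.2 CPM (median 27.9) after activation. Every activated library lay below every resting library, the nearest being a resting one at 31.4 and an activated one at 31.2 CPM. A separation of the groups of this kind was seen in 31.8% of all genes tested. The mean fell from 36.7 ± 4.05 to 27.4 ± 3.19 CPM (SD, 6 libraries each), a log2 fold change of −0.42 ± 0.13 (SE, adjusted p = 0.0108). *Rptor* in mtDNA NZB cells ran from 27.5 to 50.8 CPM (median 33.3) at rest and from 20.1 to 34.5 CPM (median 26.6) after activation. These groups overlapped, the highest resting value being 3 counts in the smallest library, and the log2 fold change of −0.28 ± 0.14 had an adjusted p of 0.0997. The 2 responses differed by 0.14 ± 0.19 (adjusted p = 0.794), so no difference between haplotypes was detected.

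Libraries fell into 3 sets by reads per UMI (1.88 to 1.96, 2.11 to 2.24 and 2.68 to 2.8), and resting and activated mtDNA B6 libraries were spread unevenly over them. The second set held 4 resting mtDNA B6 libraries, with *Rptor* at 33.7 to 43.0 CPM, and 1 activated, at 25.6 CPM. With the set as a term in the fit, *Rptor* was the member that still passed in mtDNA B6 cells (−0.54 ± 0.18, adjusted p = 0.0192), whereas *Prr5l* (−0.61 ± 0.63) and *Tsc2* (−0.32 ± 0.18) did not, with adjusted p of 0.486 and 0.178.

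Among the subunits of mTORC2, *Rictor* carried the largest fall in mtDNA NZB cells. The 6 resting mtDNA NZB libraries read 10.01, 0, 20.8, 19.6, 47.7 and 39.8 CPM in the order of replicates 1 to 6. Activated mtDNA NZB libraries ran from 5.88 to 13.4 CPM with a median of 11.0. Resting replicates 3 to 6 lay above every activated library, while replicate 1 lay inside the activated range and the smallest library had no count. *Rictor* in mtDNA B6 cells ran from 9.78 to 16.9 CPM (median 14.5) at rest and from 10.4 to 14.2 CPM (median 11.1) after activation, with overlap. The log2 fold change was −1.33 ± 0.29 (adjusted p = 0.000449) in mtDNA NZB and −0.25 ± 0.28 (adjusted p = 0.475) in mtDNA B6 cells.

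The *Rictor* fall in mtDNA NZB cells depended in size on resting replicates 5 and 6. Without both it was −0.59 ± 0.25 with an adjusted p of 0.0507, which misses the threshold, and the remaining deep resting libraries (10.01, 20.8 and 19.6 CPM) overlapped the activated range. Leaving out any 1 library kept the call, at −1.53 to −1.04. The difference between the haplotypes' responses, −1.08 ± 0.40 (unadjusted p = 0.0129, adjusted p = 0.24), did not pass the test over all genes, and over 22 libraries it was −0.39 ± 0.32 (adjusted p = 0.713).

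*Prr5l*, which encodes protor-2, an mTORC2-associated protein, was a low transcript with 0 to 33 counts per library. In mtDNA B6 cells it ran from 2.32 to 8.28 CPM (median 3.73) at rest and from 0 to 3.31 CPM (median 1.36) after activation. The groups overlapped at their edges, since activated replicates 3 and 5 were above the lowest resting library. The log2 fold change was −1.44 ± 0.49 (adjusted p = 0.0178), the largest among the members in mtDNA B6 cells, and it did not pass without resting replicate 6, which held the highest value (−1.17, adjusted p = 0.0639). Resting replicates 6 and 5, highest in *Prr5l*, were also highest in the summed neutrophil markers, at 5162 and 3800 CPM, against 413 to 2800 CPM in the other 4 resting and 0.792 to 35.6 CPM in the activated mtDNA B6 libraries. Over 23 libraries with group means subtracted, *Prr5l* had r = 0.51 with the neutrophil and 0.41 with the myeloid markers. The part of such RNA in the *Prr5l* level was not tested. *Prr5l* in mtDNA NZB cells ran from 0.336 to 16.9 CPM at rest, the highest being 1 count in the smallest library, and from 0.88 to 3.1 CPM after activation. Its log2 fold change there was −0.12 ± 0.56 (95% interval −1.27 to 1.04), which leaves room for a change of over 2-fold either way.

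The other mTORC2 subunits did not pass. *Mapkap1*, whose product SIN1 guides mTORC2 to its substrates, ran from 54.3 to 66.5 CPM at rest and 57.8 to 76.3 after activation in mtDNA B6 cells, and from 55.8 to 66.0 (5 libraries, the smallest left aside) and 56.6 to 79.1 in mtDNA NZB cells. Its log2 fold changes were 0.16 ± 0.10 in each haplotype, with adjusted p of 0.172 and 0.174. *Prr5*, which encodes protor-1, ran from 14.5 to 38.1 CPM at rest and 18.5 to 51.1 after activation in mtDNA B6 cells, and from 6.87 to 50.4 and 10.1 to 48.1 in mtDNA NZB cells. Libraries of a group differed several-fold in *Prr5*, so its intervals were wide: −0.45 to 1.04 in mtDNA B6 and −0.77 to 0.81 in mtDNA NZB cells on the log2 scale.

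The spread of *Prr5* went with markers of B cells. Over the 23 libraries with at least 500000 UMI counts, with group means subtracted, the correlation of *Prr5* with the summed B cell markers was r = 0.84, with the CD8 T cell markers r = 0.77, and with the activation markers r = −0.75. Library and depth are shared by both measures. The summed B cell markers ran from 204 to 950 CPM in resting and from 422 to 763 CPM in activated mtDNA B6 cells, and from 214 to 1104 and from 73.1 to 1006 CPM in mtDNA NZB cells. The part of B cell RNA in the *Prr5* level was not tested. For the other members, r with the B cell markers lay between −0.64 (*Rheb*) and 0.20 (*Mtor*). *Rheb* also had r = 0.78 with the activation markers and −0.72 with the CD8 T cell markers, and *Rictor* r = 0.64 with the activation markers. These values include mtDNA NZB resting replicates 5 and 6, and r without both was not computed. The summed activation markers were 180 and 262 CPM there, against 77.4 to 106 CPM in the other resting mtDNA NZB libraries.

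**Figure D3:**
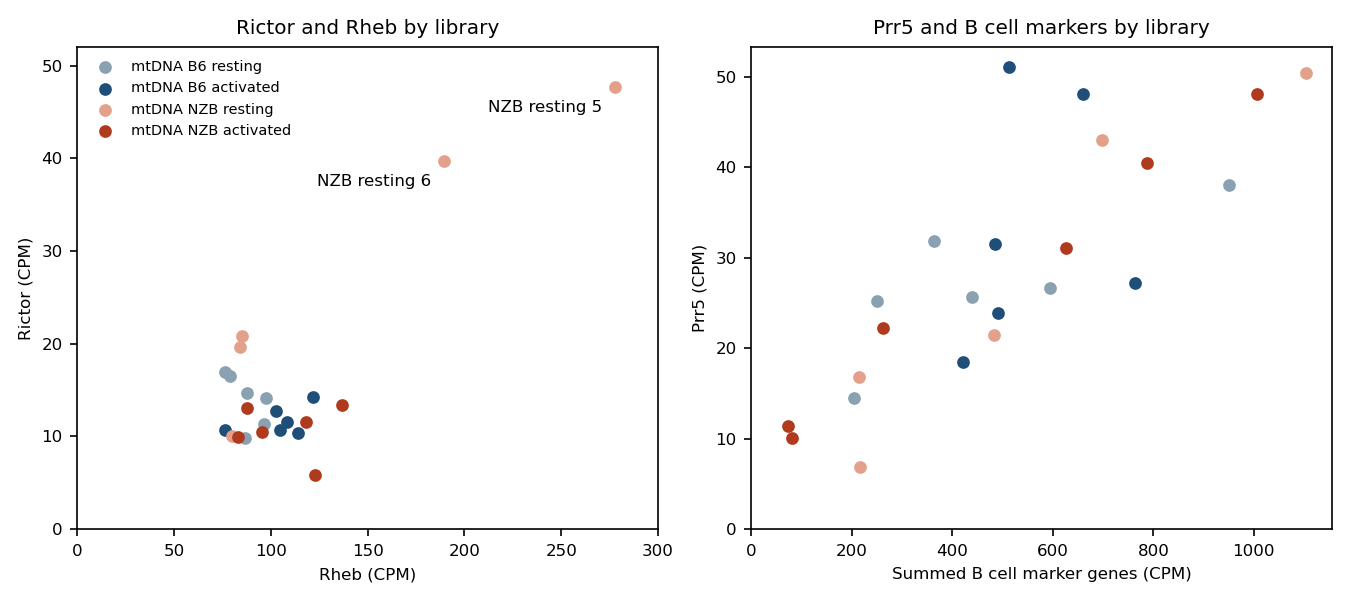
Left, *Rictor* against *Rheb* (CPM) and right, *Prr5* against the summed level of 4 B cell marker genes (CPM), in 23 libraries coloured by group. mtDNA NZB resting replicates 5 and 6 lay apart in *Rictor* and *Rheb*, and libraries with more B cell marker RNA held more *Prr5*.

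In the TSC-RHEB switch, *Tsc1* and *Tsc2*, whose products form the complex that restrains mTORC1, passed the test in 1 haplotype each, both as falls. *Tsc1* ran from 28.2 to 41.8 CPM (median 33.6) at rest and from 21.4 to 31.7 (median 26.6) after activation in mtDNA B6 cells. With mtDNA NZB it ran from 30.1 to 49.5 CPM at rest, leaving aside the smallest library with 0 counts, and from 20.3 to 30.1 CPM after activation. With the smallest library kept in, the resting and activated mtDNA NZB levels overlapped. The log2 fold change was −0.51 ± 0.17 (adjusted p = 0.0114) in mtDNA NZB and −0.35 ± 0.16 (adjusted p = 0.0658) in mtDNA B6 cells, and the 2 differed by −0.16 ± 0.23 (adjusted p = 0.806). Without resting replicates 5 and 6 the mtDNA NZB value was −0.38 ± 0.16 (adjusted p = 0.0591).

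*Tsc2* ran from 41.8 to 48.9 CPM (median 44.8) at rest and from 27.4 to 42.0 CPM (median 31.6) after activation in mtDNA B6 cells. Only activated replicate 5 reached into the resting range. The log2 fold change was −0.42 ± 0.14 (adjusted p = 0.0154), and without resting replicate 3 the adjusted p was 0.0516. *Tsc2* in mtDNA NZB cells ran from 26.9 to 43.4 CPM (median 35.7) at rest and from 33.1 to 61.8 (median 36.5) after activation, with a log2 fold change of 0.09 ± 0.15 (adjusted p = 0.844). The highest value belonged to activated replicate 1, the smallest activated library. The responses differed by 0.51 ± 0.20 (unadjusted p = 0.0195, adjusted p = 0.263). *Pkd1*, which encodes polycystin-1 and overlaps the end of *Tsc2*, fell on activation by 1.45 ± 0.17 in mtDNA B6 and by 1.41 ± 0.18 in mtDNA NZB cells on the log2 scale, with adjusted p of 1.75e-07 and 3.21e-07, and its part in the *Tsc2* counts was not tested.

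*Rheb*, the GTPase that activates mTORC1, ran from 76.4 to 97.5 CPM (median 87.1) at rest and from 76.1 to 121.6 CPM (median 106.6) after activation in mtDNA B6 cells. The resting mtDNA NZB libraries read 79.8, 50.8, 85.0, 84.2, 277.7 and 189.5 CPM for replicates 1 to 6, and the activated ones ran from 83.0 to 136.7 CPM (median 106.6). Replicates 5 and 6 were above every activated library, and the other 4 were below 5 of the 6 activated ones. Over 24 libraries *Rheb* did not pass in either haplotype, at 0.26 ± 0.24 (adjusted p = 0.38) and −0.37 ± 0.25 (adjusted p = 0.209). Over 22 libraries it was called higher after activation in both, at 0.31 ± 0.12 (adjusted p = 0.037) in mtDNA B6 and 0.43 ± 0.15 (adjusted p = 0.0182) in mtDNA NZB cells. *Rheb* was therefore the member that both changed direction and gained a call in mtDNA NZB cells when these 2 libraries were left out. They held the highest resting *Rheb* levels and were chosen after their values were seen. The mtDNA NZB call over 22 libraries is thus no independent evidence of a rise. A fit of the 12 mtDNA B6 libraries alone also called *Rheb* higher, at 0.25 ± 0.10 (adjusted p = 0.0486).

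The haplotypes were then compared within each state. At rest no member passed between mtDNA NZB and mtDNA B6 cells, against 2.76% of all genes (1.13% over 22 libraries, again with no member), and 3 of 10 had an unadjusted p under 0.05 in edgeR's test, against 20.8% of all genes. DESeq2 with the study's settings also called 0 of 10. The 3 were *Rictor* (0.93 ± 0.28, adjusted p = 0.0637), *Rheb* (0.66 ± 0.24, adjusted p = 0.124) and *Tsc2* (−0.31 ± 0.15, adjusted p = 0.219), with positive values for more RNA in mtDNA NZB cells. Over 22 libraries these were 0.22 ± 0.24, −0.12 ± 0.15 and −0.17 ± 0.15, with adjusted p of 0.77, 0.795 and 0.692. *Rictor* passed when resting mtDNA NZB replicate 1, 3 or 4 was left out, with a lowest adjusted p of 0.0137.

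After activation no member differed between haplotypes, and edgeR called 0 of all 10566 genes. No member had an unadjusted p under 0.05, against 3.09% of all genes, and DESeq2 called none. The median size of the log2 difference was 0.07 over the members and 0.12 over all genes. The intervals bound what these libraries could have missed: −0.17 to 0.27 for *Mtor*, −0.25 to 0.30 for *Rptor*, −0.74 to 0.45 for *Rictor* and −0.46 to 0.52 for *Rheb*. For the difference between the responses to activation edgeR likewise called none of the members and none of the genes, with 2 of 10 members (*Rictor* and *Tsc2*) against 14.3% of genes at an unadjusted p under 0.05, and DESeq2 called none of the members.

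Ratios of 2 members within a library do not depend on library scaling. The log2 ratio of *Rictor* to *Rptor* counts, the defining subunits of mTORC2 and mTORC1, had a median of −1.29 (range −1.99 to −1.11) in resting and −1.17 (−1.54 to −0.91) in activated mtDNA B6 cells. For mtDNA NZB the median was −0.40 (−1.81 to 0.61, 5 libraries) at rest, −0.69 (−1.81 to −0.40, 3 libraries) at rest without replicates 5 and 6, and −1.15 (−2.44 to −0.81) after activation. The 2 highest resting values were those of replicates 5 and 6. The log2 ratio of *Tsc1* to *Tsc2* was below 0 in every mtDNA B6 library, with medians of −0.39 at rest and −0.32 after activation. For mtDNA NZB it ran from −0.45 to 0.65 (median 0.02, 5 libraries) at rest, from −0.45 to 0.02 (median −0.28, 3 libraries) without replicates 5 and 6, which held the 2 highest values, and from −1.43 to −0.33 (median −0.52) after activation. The log2 ratio of *Prr5* to *Prr5l* rested on few *Prr5l* counts and ranged from 1 to 6 over the libraries in which both were counted.

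Across the 23 deeper libraries with group means subtracted, the members did not move as a unit. The highest correlation between 2 members was that of *Rictor* with *Rheb* (r = 0.63), which was r = −0.04 without mtDNA NZB resting replicates 5 and 6, over 21 libraries. The lowest was that of *Prr5* with *Rheb* (r = −0.81, and −0.78 without both). The other mTORC2 subunits had r with *Rictor* of −0.49 (*Prr5*), −0.25 (*Mapkap1*) and −0.21 (*Prr5l*). *Rptor* and *Rictor* had r = −0.06, and *Tsc1* and *Tsc2* r = 0.11. Among all genes tested, those most like *Rheb* were *Ube2a* (r = 0.95) and *Oat* (r = 0.94), *Cltc* was like *Rictor* (r = 0.84), and those most like *Prr5* were *B3gnt8* (r = 0.94) and *Irf8* (r = 0.93). For *Mtor* they were *Tmem203* (r = 0.78) and *Cant1* (r = 0.76), for *Rptor* *Slc25a28* (r = 0.71) and *Luc7l3* (r = 0.69), and for *Mlst8* *Mafg* (r = 0.68) and the pseudogene *Rpl17-ps3* (r = 0.67). *Mapkap1* was most like *Hspbp1* (r = 0.77) and *Aldh9a1* (r = 0.76), and *Prr5l* most like *Ms4a6c* (r = 0.77) and *Dhdds* (r = 0.76). *Tsc1* was most like *Map4k2* (r = 0.78) and *Cers5* (r = 0.77), and *Tsc2* most like *Pick1* (r = 0.86) and *Xntrpc* (r = 0.83). These likenesses to genes outside the members include mtDNA NZB resting replicates 5 and 6, which held the highest *Rheb* and *Rictor* levels. They were not computed without both.

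Without subtracting group means, so that the shift on activation counts as well, *Ube2b* was like *Rictor* (r = 0.90), and *Nup50* and *Ss18* were closest to *Rheb* (both r = 0.91). *Prr5* was closest to *Lrrk1* (r = 0.89) and *Vav2* (r = 0.88), *Mapkap1* to *Hspbp1* (r = 0.82) and *Paox* (r = 0.79), and *Prr5l* to *Itgb5* (r = 0.78) and *Rfx2* (r = 0.75). *Rptor* was closest to *Gprasp1* and *Gdpd3* (both r = 0.79), *Tsc1* to *Map4k2* and *Ncoa1* (both r = 0.87), and *Tsc2* to *Zfp688* (r = 0.83) and *Zgpat* (r = 0.82). The 2 common subunits had the weakest likenesses, *Mtor* with *Zdhhc4* (r = 0.70) and *Rcan1* (r = 0.68), and *Mlst8* with *Acaca* (r = 0.65) and *Afg3l2* (r = 0.58).

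The wider pathway was followed in 68 further genes, of which 59 were tested. With mtDNA B6 11 rose and 12 fell on activation, and with mtDNA NZB 10 rose and 17 fell, shares of the tested genes below the 46.9% and 53.5% of all genes. Over 22 libraries 61 were tested, with 16 higher and 15 lower for mtDNA B6 and 13 higher and 16 lower for mtDNA NZB. The shares of all genes called were then 53.3% and 50%. *Tbc1d7*, the third subunit of the TSC complex, rose 2.76-fold in mtDNA B6 (log2 1.47 ± 0.15, adjusted p = 2.41e-08) and 3.86-fold in mtDNA NZB cells (1.95 ± 0.17, adjusted p = 1.05e-09). It thus rose in both haplotypes where its partners *Tsc1* and *Tsc2* did not rise in either. *Rhebl1*, the paralog of *Rheb*, fell in mtDNA NZB cells over 24 libraries (−1.03 ± 0.30, adjusted p = 0.00565) but did not pass over 22 (−0.34 ± 0.28, adjusted p = 0.318).

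**Figure D4:**
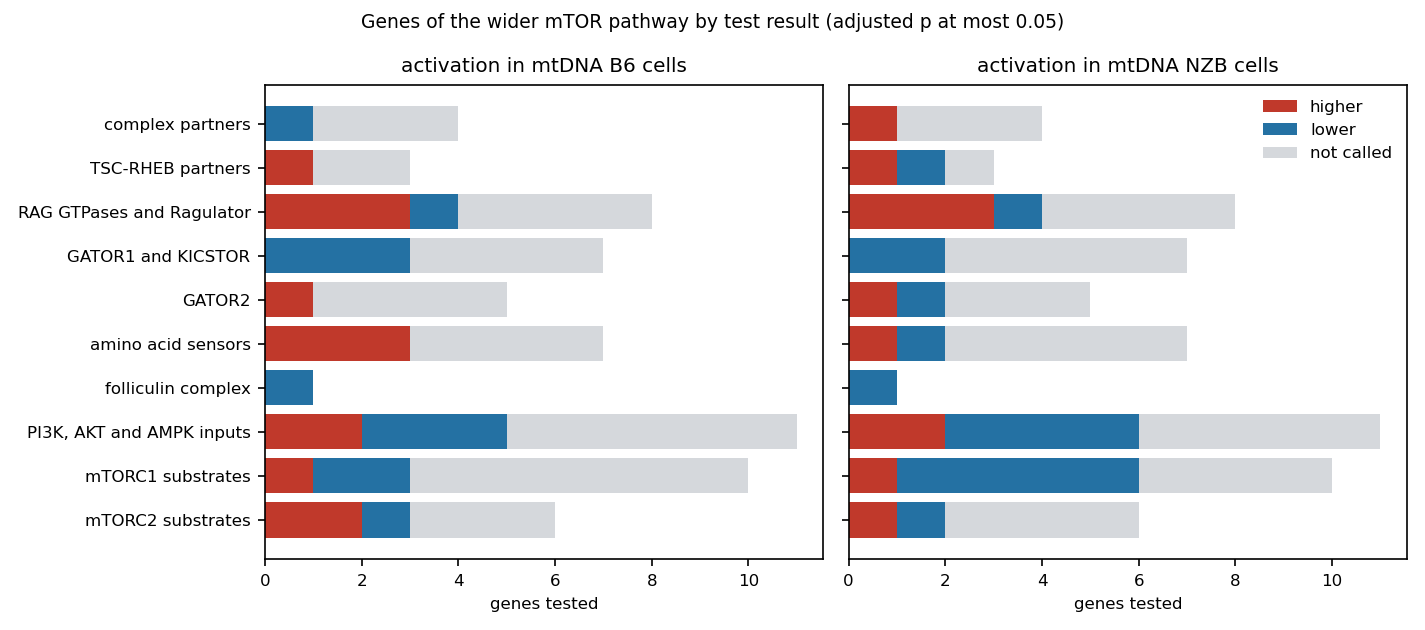
Number of tested genes of each further list (x axis) that were higher, lower or not called on activation in mtDNA B6 (left) and mtDNA NZB cells (right). The Ragulator list held 3 higher and 1 lower gene in each haplotype, and the GATOR1 and KICSTOR list held no higher gene in either. Of all genes tested, 46.9% passed in mtDNA B6 and 53.5% in mtDNA NZB cells.

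Of the machinery that tells mTORC1 of amino acids at the lysosome, 3 of 8 tested RAG and Ragulator genes were higher and 1 lower in each haplotype (5 and 4 higher over 22 libraries, with 1 lower in each). Among all genes tested, 46.9% and 53.5% were called in either direction over 24 libraries, and 53.3% and 50% over 22. The Ragulator scaffold genes *Lamtor1* and *Lamtor5* rose in both: *Lamtor1* by 0.66 ± 0.09 in mtDNA B6 and 0.77 ± 0.10 in mtDNA NZB cells, and *Lamtor5* by 0.66 ± 0.09 and 0.87 ± 0.10 on the log2 scale. In GATOR1 and KICSTOR, the inhibitory arm, 3 of 7 were lower in mtDNA B6 and 2 of 7 in mtDNA NZB cells (3 of 7 in each over 22 libraries), against 24.5% and 28.4% of all genes called lower, and none was higher. *Nprl3*, a GATOR1 subunit, fell by 0.77 ± 0.20 and 0.59 ± 0.22 (by 0.91 ± 0.16 in mtDNA NZB cells over 22 libraries). Of the opposing GATOR2 complex, *Sec13* rose in both (0.47 ± 0.12 and 0.84 ± 0.13), and *Wdr59* fell in mtDNA NZB cells (−0.51 ± 0.19, adjusted p = 0.0277), but not over 22 libraries (−0.41 ± 0.21, adjusted p = 0.104). *Castor1*, an arginine sensor, rose 1.77-fold and 1.82-fold, and *Flcn*, a GTPase-activating protein for RAGC and RAGD, fell to 0.647 and 0.348 of its resting level (0.544 in mtDNA NZB cells over 22 libraries).

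Among the upstream kinases, *Akt1* rose 1.73-fold and 1.82-fold, while *Pik3r1*, the regulatory subunit p85α of PI3K, fell to 0.297 and 0.232 of the resting level and *Pik3cb* to 0.599 and 0.426. Of 10 mTORC1 substrates 1 rose and 2 fell with mtDNA B6, and 1 rose and 5 fell with mtDNA NZB, against 46.9% and 53.5% of all genes called in either direction. Over 22 libraries, 11 were tested, of which 1 rose and 4 fell with mtDNA B6, and 2 rose and 6 fell with mtDNA NZB. Of all genes, 53.3% and 50% were called in either direction over these 22 libraries. *Ulk1* and *Maf1* fell with mtDNA NZB by 1.51 ± 0.31 and 0.83 ± 0.15 over 24 libraries, and by 0.47 ± 0.19 and 0.42 ± 0.10 over 22. With mtDNA B6 the changes were −0.37 ± 0.29 and −0.33 ± 0.15 over 24 libraries (adjusted p = 0.314 and 0.0646). Over 22 they were −0.33 ± 0.16 and −0.28 ± 0.09 (adjusted p = 0.0811 and 0.00922), so *Maf1* passed. The differences between the responses did not pass over 24 (adjusted p = 0.239 and 0.281) or 22 libraries (0.897 and 0.775). *Larp1*, a translational regulator of ribosomal protein transcripts, rose by 0.42 ± 0.16 and 0.75 ± 0.17, *Rps6kb1* (S6 kinase 1) fell by 0.43 ± 0.12 and 0.73 ± 0.13, and *Lpin1*, a phosphatidate phosphatase, fell by 0.81 ± 0.21 and 1.61 ± 0.23 on the log2 scale (by 0.94 ± 0.14 in mtDNA NZB cells over 22 libraries). Of the mTORC2 substrates, *Sgk1* showed the largest fall among the 59 genes in both haplotypes, −2.39 ± 0.17 (adjusted p = 3.81e-11) and −2.53 ± 0.18 (adjusted p = 3.36e-11), while *Akt2* rose in mtDNA B6 cells by 0.26 ± 0.10 (adjusted p = 0.0364) and over 22 libraries in both haplotypes (0.31 ± 0.09 and 0.36 ± 0.12). Of the complex partners, *Telo2* fell in mtDNA B6 (−0.65 ± 0.18) and *Tti1* rose in mtDNA NZB cells (0.65 ± 0.23), the latter not passing over 22 libraries (0.35 ± 0.20, adjusted p = 0.149).

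Between haplotypes, 3 of the 59 genes passed at rest, against 2.76% of all genes, and 18 had an unadjusted p under 0.05, against 20.8% of all genes. With edgeR fitted to the 12 resting libraries alone, 0 of 9907 genes passed, with 16.6% at an unadjusted p under 0.05, and DESeq2 over 24 libraries called 0.719%. All 3 were higher in mtDNA NZB cells: *Ulk1*, an autophagy kinase inhibited by mTORC1 (1.16 ± 0.30, adjusted p = 0.0389), *Flcn* (0.83 ± 0.22, adjusted p = 0.0445) and *Maf1*, a repressor of RNA polymerase III (0.65 ± 0.15, adjusted p = 0.0298). *Ulk1* ran from 31.1 to 60.6 CPM in resting mtDNA B6 and from 40.1 to 209.9 CPM in resting mtDNA NZB cells. Without replicates 5 and 6 its highest resting mtDNA NZB value was 53.5 CPM, inside the mtDNA B6 range. Over 22 libraries none of the 61 genes then tested passed at rest (8 at an unadjusted p under 0.05), with *Ulk1* at 0.14 ± 0.19, *Flcn* at 0.21 ± 0.16 and *Maf1* at 0.27 ± 0.10 (adjusted p = 0.811, 0.636 and 0.208). After activation none of the 59 passed in edgeR's test, with 2 at an unadjusted p under 0.05 (3.09% of all genes), and for the difference between responses none passed, with 12 at an unadjusted p under 0.05 (14.3% of all genes).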

How the data were processed

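RNA of 24 Tconv CD4+ libraries was analysed. Per the study's methods and processing notes, the authors trimmed reads with cutadapt, dropped reads under 30 bases, mapped the rest with STAR to the last 1000 bases of GRCm39 transcripts, counted them per gene with HTSeq and collapsed them by UMI. The authors deposited UMI-corrected counts (used here; whole numbers, not scaled) and a second table of larger counts, read as those before deduplication and used as an alternative. Of its columns, 1 belonged to no sample here and was left out. The labels give 30 ng of RNA per library and the methods 60 ng.

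Groups came from sample titles. Analysis used R 4.3.3, edgeR 4.0.16, limma 3.58.1, DESeq2 1.42.0 and Python 3.11.15. Genes were filtered by filterByExpr (minimum count 10), scaled by TMM and fitted over 4 groups with edgeR's quasi-likelihood test, tested on simulated data first, with Benjamini-Hochberg adjustment over 10566 genes. The SE is the size of the log2 fold change over the square root of F. For some genes edgeR's p-value was larger than the fold change and SE alone would give. *Mlst8* with mtDNA B6 and *Tsc2* with mtDNA NZB, on activation, were such cases. Correlations used log2(CPM + 1) over 23 libraries. No 2 libraries of a group agreed within sampling noise over 60 pairs (lowest chi-square over its degrees of freedom 2.97). The members and lists were chosen with earlier results of these data known. All 10 members are named. From each further list up to 3 genes called in both haplotypes with the same sign and the largest mean change are named, with any gene called between haplotypes. Some genes that these rules select are not reported here. *Rhebl1*, *Wdr59*, *Akt2*, *Telo2*, *Tti1* and *Pkd1* were named after their values were seen. Alternatives were DESeq2, other size factors, filters and fold cut-off, the second table, fewer groups or libraries, library set and replicate blocks.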

Additional observations from a re-analysis of the deposited data

Results flagged for a closer look

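In 40 sets of 6 libraries (10 members in 4 groups), 4 held a library far from the others, judged by the gap to the nearest library against the whole range (Dixon's test at 95%). Chance flags about 1 in 20 such sets. In the smallest library, mtDNA NZB resting replicate 2, *Mlst8* was at 0 CPM (next lowest 23.5), *Mapkap1* was at 33.9 CPM (next lowest 55.8) and *Prr5l* was at 16.9 CPM (next highest 4.01), on 0, 2 and 1 counts. In mtDNA NZB activated replicate 1, which held 641467 UMI counts, *Tsc2* was at 61.8 CPM (next highest 37.9).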

How the results depend on the processing

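Of 1842 member values under alternatives, 1651 kept their direction and side of the threshold, 154 changed sign with no call in either fit, 20 lost a call, 16 gained one, and 1 reversed: *Rheb* on activation in mtDNA NZB cells, 0.43 without resting replicates 5 and 6. The count of members higher in mtDNA B6 cells went from 0 to 1 over 22 libraries and with only the groups compared. The count lower there went from 3 to 1 with a log2 change of at least 1, the second count table, the library set as a term, and the set with 21 libraries (without mtDNA NZB resting 2 and 6 and activated 6). In mtDNA NZB cells the count higher went from 0 to 2 and the count lower from 2 to 0 over 22 libraries, and the count lower to 1 with a log2 change of at least 1 or only the groups compared. Over all genes, the percentage called at rest between haplotypes was 2.76, and 0.719 by DESeq2, 0.358 in the second table, 6.11 over 21 libraries, 1.13 over 22, 0 with only the groups compared, 0.00946 with the library set as a term and 0.681 with the block by title number. For the difference between responses that percentage was 0 in the main fit, 0.004 by DESeq2 and 1.04 over 21 libraries. It was 0.0739 over 21 libraries with the block by label number. The causes were not tested. Leaving out 1 library gave 2 to 4 lower members in mtDNA B6, 2 to 3 in mtDNA NZB cells, and 0 to 1 higher at rest between haplotypes. *Tsc1* in mtDNA B6 cells gained a call without B6 resting replicate 5, B6 activated replicate 6 or NZB resting replicate 5 (lowest adjusted p = 0.0427), and *Rptor* in mtDNA NZB cells without NZB activated replicate 6 (adjusted p = 0.0374).

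Deviations from group means were correlated between resting and activated samples with the same label number. The r ran from −0.0743 to 0.252 over 5 mtDNA B6 pairs and from −0.169 to −0.0042 over 4 mtDNA NZB pairs. Whether such samples share a mouse was not tested. With a replicate block by label number, 1 member (*Rptor*) was lower with mtDNA B6 and 3 with mtDNA NZB. The block by title number gave 3 and 3. Depth limits *Prr5l* most, and the smallest library adds little to any member.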
